A study of Mus musculus with 6 samples.

Results

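The surface proteins by which mouse hematopoietic stem and multipotent progenitor cells are sorted and subdivided were followed at the transcript level in LSK cells, the bone marrow cells that lack lineage markers and carry Sca-1 and c-Kit. The genes were Kit, Ly6a, Cd34, Slamf1, Cd48, Flt3, Procr, Thy1 and Cd9, chosen by name, with every probe set that the platform annotation pairs with that gene alone. This gave 11 probe sets for 8 of the 9 genes, out of 45037 probe sets and 18193 named genes. Ly6a, the gene of Sca-1, had no such probe set in the annotation used here and was not analysed here.

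The arrays came from 2 genotypes of C57BL/6 mice that all carried the Mx1-Cre transgene, whose interferon-inducible promoter is active in many tissues and not only in blood cells. Control mice were Srf+/+;Mx1-Cre and SRF-null mice were Srf flx/flx;Mx1-Cre, so that Cre removes Srf, the gene of serum response factor, in the second group only. Mice of both genotypes were induced at 6 weeks of age with 3 intraperitoneal injections of 200 µg of the double-stranded RNA pIpC, spaced 2 days apart, and their marrow was taken at 35 days past the final injection. The LSK cells came sorted out of pooled animals, and each genotype was measured on 3 arrays. No label says how many animals made up a pool, so p-values measure the spread between these samples.

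Each of these proteins marks a step in early hematopoiesis. KIT is the receptor of stem cell factor and FLT3 the receptor of FLT3 ligand, and both are receptor tyrosine kinases of early progenitors, FLT3 being carried by multipotent progenitors with lymphoid potential rather than by long-term stem cells. CD150, the product of Slamf1, and CD48 are receptors of the SLAM family, and stem cells are sorted as positive for the first and negative for the second. EPCR, the product of Procr, binds protein C on endothelium and marks stem cells in the marrow. CD34 is a sialomucin that adult mouse long-term stem cells largely lack, Thy1 is a glycolipid-anchored protein found at low level on stem cells and at high level on T cells, and CD9 is a tetraspanin of stem cells and megakaryocytes.

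Because the comparison removes a transcription factor, the 250 bases before the start site of each marker gene were searched on both strands for the CArG box, the sequence that SRF binds, and for CCGGAAGT, a site of ETS factors, the family that holds some SRF cofactors. The search covered 8 start sites of 7 marker genes in RefSeq (GRCm38.p6), and Ly6a and Thy1 were not in that table. None of the 8 windows held a CArG box and none held CCGGAAGT, where 1.47% and 2.88% of all 32851 windows did. Slamf1 is shown because it had the largest difference among the markers, Cd48 because it is a neighbouring SLAM gene, with the pseudogene Tma7-ps between them, and Srf itself because its window holds CArG boxes, in capitals, that end 73 and 53 bases before its start. They lie at chr1:171766882-171767131, on the plus strand, at chr1:171681742-171681991, on the plus strand, and at chr17:46556163-46556412, on the minus strand. Absence of these letters from a window says nothing of sites elsewhere.
Slamf1: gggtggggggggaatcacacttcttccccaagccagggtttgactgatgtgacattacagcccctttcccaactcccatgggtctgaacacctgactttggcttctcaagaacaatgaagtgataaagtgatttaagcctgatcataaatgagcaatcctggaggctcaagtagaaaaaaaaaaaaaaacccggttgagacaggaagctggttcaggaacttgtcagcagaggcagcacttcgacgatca
Cd48: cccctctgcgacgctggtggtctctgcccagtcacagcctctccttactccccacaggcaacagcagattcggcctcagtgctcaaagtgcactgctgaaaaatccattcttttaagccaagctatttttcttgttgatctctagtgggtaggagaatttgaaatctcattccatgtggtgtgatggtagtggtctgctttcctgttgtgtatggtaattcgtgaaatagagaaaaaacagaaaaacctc
Srf: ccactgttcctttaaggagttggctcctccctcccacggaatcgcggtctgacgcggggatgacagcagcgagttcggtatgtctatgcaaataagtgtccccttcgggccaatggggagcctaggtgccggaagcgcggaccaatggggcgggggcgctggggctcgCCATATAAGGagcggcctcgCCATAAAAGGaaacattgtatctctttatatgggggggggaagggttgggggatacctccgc

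The deposited signal was linear, and per array its median lay between 200.4 and 292.2 and its upper quartile between 5008 and 5312. Values below are log2(signal + 16) after quantile normalization, and a difference is SRF-null minus control with its standard error (SE). Means carry the SD over n = 3 arrays per group. Arrays of equal replicate number deviated together from their group means, and are called pairs. These pairs were read from the same values, and the fit behind the SEs given here has genotype as its only term. Srf was at 13.04, 12.998 and 13.04 on the control arrays and at 12.58, 12.43 and 12.80 on the SRF-null arrays by its brighter probe set, a difference of -0.42 (SE 0.14). Its dimmer probe set differed by 0.10 (SE 0.35), and no label places either against the deleted part of Srf. In each genotype 1 array differed from the rest in sex-linked transcripts. Control replicate 2 was at the bottom of the scale for Y-linked Kdm5d, which was at 10.54 to 11.98 elsewhere, and SRF-null replicate 1 was at 5.03 for Xist, against 15.13 to 16.24 elsewhere. The 3′ minus 5′ log2 signal of Actb, which reflects RNA integrity and amplification, was 1.18 to 1.45 on control and 0.93 to 1.51 on SRF-null arrays. That of Gapdh was 0.97 to 1.20 on control and 0.67 to 1.16 on SRF-null arrays. SRF-null replicate 3 was the lowest array for both, at 0.93 for Actb and 0.67 for Gapdh. A link of these values to the marker differences was not tested.

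The labelled cell type was checked against its markers. Kit, Cd34 and Flt3 were bright on every array, with normalized log2 signals of 14.81 to 15.44, 16.72 to 16.93 and 15.10 to 15.69 on their brighter or only probe sets. For the lineage gate 7 genes were measured. Itgam, a myeloid integrin subunit, was at 5.47 to 6.18 and the T cell co-receptor gene Cd8a at 5.41 to 6.23, near the bottom of the scale at 4. The T cell receptor subunit gene Cd3e ranged from 4.10 to 7.54, with its highest values on SRF-null replicates 2 and 3, and Cd4 from 7.17 to 9.23. Il7r, also in the gate list, was well above the bottom of the scale at 10.09 to 13.55, with each SRF-null array above all controls, and Ptprc, which all leukocytes express and of which the gate reads 1 isoform, was at 15.34 to 15.74. All 7 measured genes of the gate had a positive difference, with a median of 0.63, where 48.6% of all genes did.

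Slamf1 was the marker with the largest difference between genotypes, and it was lower in SRF-null cells on all 3 of its probe sets without passing the test over all probe sets. On its brightest probe set, 1425570_at, the control arrays were at 11.60, 12.33 and 11.80 and the SRF-null arrays at 11.61, 10.73 and 9.18. SRF-null replicate 1 lay among the controls, replicate 2 below all of them and replicate 3 far below, so the groups overlapped by 1 array. The mean was 11.91 ± 0.38 in control and 10.51 ± 1.23 in SRF-null cells, a difference of -1.40 (SE 0.62) or 2.65-fold, with an adjusted limma p of 1. In the deposited signals, before normalization, the control arrays were at 3279, 5144 and 3530 and the SRF-null arrays at 3176, 1652 and 520.8, which do not overlap, whereas the deposited signals of both other Slamf1 probe sets did. In bulk LSK RNA such a value cannot tell fewer CD150-bearing cells from less Slamf1 RNA per cell.

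The other probe sets of Slamf1 were dimmer and also had SRF-null replicates 2 and 3 as their lowest arrays. The order within each genotype was not shared. Control replicate 2 was the highest control on the brightest probe set and the lowest on 1425569_a_at. SRF-null replicate 2, not 3, was the lowest array on 1425571_at. Probe set 1425569_a_at was at 8.73, 8.23 and 9.13 on control arrays and at 8.23, 6.87 and 6.39 on SRF-null arrays. The groups were barely separated, by control replicate 2 just above SRF-null replicate 1, and the difference was -1.53 (SE 0.51, limma adjusted p = 1). Probe set 1425571_at was at 7.57, 7.999 and 7.85 against 7.52, 6.81 and 6.84, again with SRF-null replicate 1 next to the controls, and differed by -0.75 (SE 0.24, limma adjusted p = 1). Their 95% intervals ran from -2.78 to -0.28 and from -1.35 to -0.16. These 2 probe sets were the only ones of the 11 marker probe sets with an unadjusted p under 0.05 and the only ones whose groups did not overlap after normalization, and both belong to the same gene. Before normalization both overlapped, with control replicate 2 at 265.1 below SRF-null replicate 1 at 323.1 for the first, and control replicate 3 at 183.3 below SRF-null replicate 1 at 189.6 for the other. Over all probe sets 4.39% had such a p (2.37% higher, 2.02% lower) and 9.24% had groups that did not overlap (4.74% higher, 4.5% lower).

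Single arrays set the size of the Slamf1 difference. Without SRF-null replicate 3 the brightest probe set differed by -0.74 (SE 0.36) and the others by -1.15 and -0.65. Without SRF-null replicate 1 they differed by -1.98, -2.05 and -0.97, and with control replicate 2 left out as well, which removes both arrays with transcripts of 1 sex, by -1.76, -2.28 and -0.87. Within pairs the brightest probe set differed by 0.01, -1.60 and -2.62. The Slamf1 sign was thus negative under every alternative that was run, though the variance model, the replicate block and the row filters cannot change a difference. Its size moved by over 1.5 times, and adjusted limma p-values over those alternatives were 0.609 to 1.

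**Figure D1:**
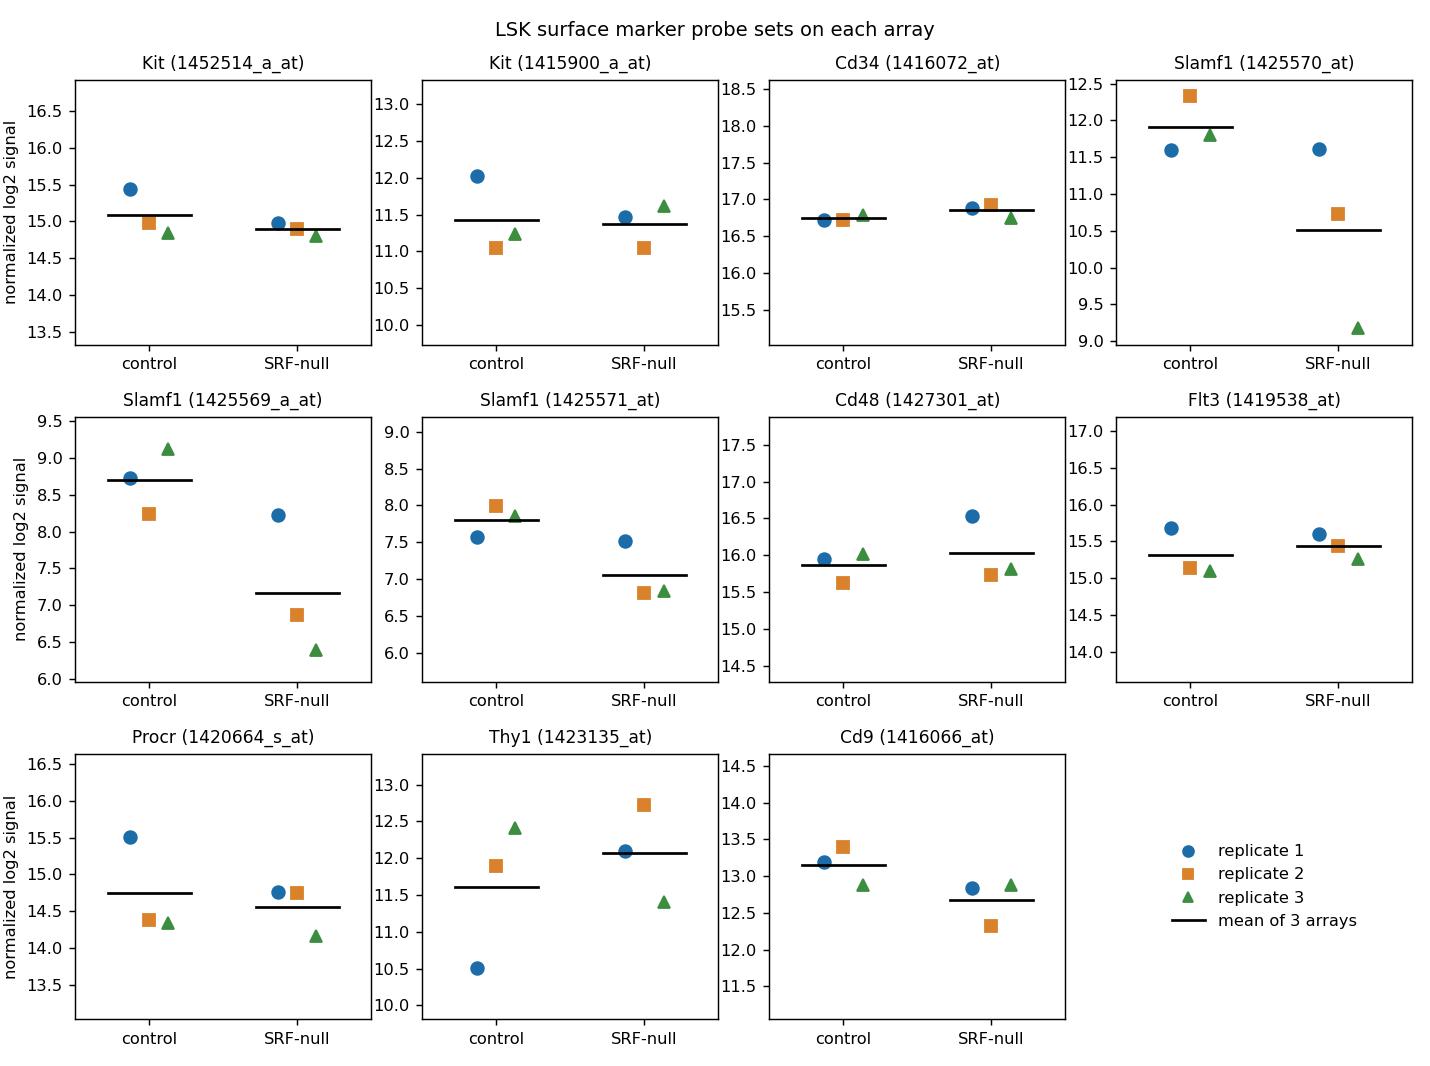
Normalized log2 signal of each marker probe set on the 6 arrays, 3 per genotype, with a line at the mean of 3 arrays, symbols for the replicate number and vertical axes of equal length. Slamf1 is lowest on SRF-null replicates 2 and 3 on each of its probe sets, while Cd34, Kit and Flt3 keep close to their control means.

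CD48, the SLAM receptor that stem cells lack, had no such difference. Cd48 was at 15.94, 15.63 and 16.02 on control arrays and at 16.53, 15.73 and 15.82 on SRF-null arrays. SRF-null replicate 1 was the highest array and the other SRF-null arrays lay within the control range. The difference was 0.16 (SE 0.26, 95% interval -0.46 to 0.79, limma adjusted p = 1). It turned to -0.09 without SRF-null replicate 1 and to -0.21 when control replicate 2 was dropped too.

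Slamf1 and Cd48 sit among other SLAM receptor genes on chromosome 1, in the gene order Cd244a, Ly9, Slamf7, Cd48, Slamf1, Cd84 and Slamf6 of RefSeq. Of the 8 measured genes in the list of other SLAM receptors and adaptors 7 had a positive difference, with a median of 0.35, and 0 passed the adjusted test. Ly9, whose product CD229 is used to divide stem and progenitor subsets, was at 11.82, 11.99 and 12.05 on control and at 12.28, 12.42 and 12.64 on SRF-null arrays, a difference of 0.50 (SE 0.15, limma adjusted p = 1). These groups did not overlap, as was so for 5.16% of all genes in that direction. Cd244a, the receptor of CD48, differed by 0.43 (SE 0.22) and Slamf6 by 0.80 (SE 0.59) on its brightest probe set, both with overlapping groups. Cd84, the neighbour of Slamf1 on its other side, differed by 0.36 (SE 0.36). Along this stretch Slamf1 alone had a negative difference among the 7 SLAM receptor genes by their brightest probe sets. The difference between Slamf1 and its neighbours was itself not tested.

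KIT, which defines the sort with Sca-1, was close to its control level. Kit was at 15.44, 14.98 and 14.84 on control and at 14.98, 14.90 and 14.81 on SRF-null arrays by probe set 1452514_a_at. Control replicate 1 was the highest and the other 5 arrays lay close together. The difference was -0.19 (SE 0.19, 95% interval -0.66 to 0.27, limma adjusted p = 1) and was -0.02 without control replicate 1. On the dimmer probe set, 1415900_a_at, the control arrays were at 12.03, 11.04 and 11.23 and the SRF-null arrays at 11.47, 11.04 and 11.61, a difference of -0.06 (SE 0.31). This value turned to 0.24 without control replicate 1 and to 0.10 without SRF-null replicate 2.

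FLT3 followed KIT in having its highest value on control replicate 1. Flt3 was at 15.69, 15.14 and 15.10 on control arrays and at 15.60, 15.44 and 15.27 on SRF-null arrays. All 3 SRF-null arrays lay inside the control range, and the difference was 0.13 (SE 0.21, 95% interval -0.38 to 0.63, limma adjusted p = 1). It was 0.32 without control replicate 1 and -0.04 with control replicate 2 and SRF-null replicate 1 both dropped. Ligands and signalling genes downstream of both receptors were split evenly, with 10 of 20 measured genes higher and 10 lower, a median of -0.0025 and 0 past the adjusted test. Pik3cd, a catalytic subunit of phosphoinositide 3-kinase, had the smallest unadjusted p among them and differed by -0.48 (SE 0.20), followed by Stat3 at -0.33 (SE 0.22) and Stat5b at 0.17 (SE 0.13). Related early cytokine receptors had 9 of 11 measured genes higher, with a median of 0.26 and 0 past the test, among them Pdgfrb at 0.65 (SE 0.21) and Il6st, the shared subunit of the interleukin 6 family receptors, at 0.47 (SE 0.19).

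CD34 was the steadiest of the markers. Cd34 was at 16.73, 16.72 and 16.78 on control arrays and at 16.88, 16.93 and 16.74 on SRF-null arrays. SRF-null replicates 1 and 2 lay above all controls and replicate 3 among them. The difference was 0.11 (SE 0.12), with a 95% interval of -0.19 to 0.40, the narrowest among the markers, and an adjusted limma p of 1. Of the 7 other CD34 family members and sialomucins 5 were higher and 2 lower, with a median of 0.06 and 0 past the adjusted test. Podxl, the gene of podocalyxin and a member of the CD34 family, was at 12.75, 14.27 and 13.66 on control and at 12.17, 11.54 and 11.54 on SRF-null arrays. Its groups did not overlap, as was so for 5.45% of all genes in that direction, and the difference was -1.81 (SE 0.42, limma adjusted p = 0.974). A dimmer probe set of Podxl was near the bottom of the scale and differed by 0.27 (SE 0.25).

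EPCR transcripts overlapped between the genotypes. Procr was at 15.51, 14.37 and 14.34 on control arrays and at 14.77, 14.74 and 14.16 on SRF-null arrays. Control replicate 1 was the highest array, as it was for Kit, and SRF-null replicate 3 the lowest. The difference was -0.18 (SE 0.37, 95% interval -1.09 to 0.72, limma adjusted p = 1). It turned to 0.20 without control replicate 1 and to 0.01 without SRF-null replicate 3. In the EPCR and protein C pathway 4 of 9 measured genes were higher and 5 lower, with a median of -0.21, and 0 passed the adjusted test. Thbd, the gene of thrombomodulin, which presents thrombin to protein C, was at 11.99, 11.77 and 12.32 against 13.26, 12.58 and 13.74, a difference of 1.17 (SE 0.32). F2r, the thrombin receptor through which EPCR-bound protein C can signal, differed by -0.53 on both of its probe sets (SE 0.22 and 0.24), and F2, the prothrombin gene, was near the bottom of the scale in both genotypes (4.85 and 4.21). The groups did not overlap for these 3 genes and for 6 of the 9 in all, 3 higher and 3 lower, where 10.6% of all genes had such groups. Of those 6, Proc, F2 and F3 were under 6 on every array, near the bottom of the scale. None of the 9 passed the adjusted limma test.

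CD9 had a lower mean in SRF-null cells, short of the test. Cd9 was at 13.19, 13.39 and 12.88 on control arrays and at 12.84, 12.33 and 12.88 on SRF-null arrays. The lowest control array and the highest SRF-null array were level, so the groups touched, and before normalization they lay apart, at 7561 to 10940 against 4980 to 7344 in deposited signal. The difference was -0.47 (SE 0.22), or 1.39-fold, with a 95% interval of -1.01 to 0.07 and an adjusted limma p of 1. It was negative under all 16 alternatives (-0.61 to -0.29), some of which cannot change a difference, and the pairs differed by -0.35, -1.06 and 0.00. Of 17 other measured tetraspanins and partners 8 were higher and 9 lower, with a median of -0.06 and 0 past the test. Tspan2 was at 12.56, 13.13 and 13.06 on control and at 13.98, 14.18 and 13.86 on SRF-null arrays, a difference of 1.09 (SE 0.20, limma adjusted p = 0.917), and its other probe sets differed by 0.79 and 1.75. Cd37, a leukocyte tetraspanin, had 0.49 (SE 0.21) for its brighter probe set but -0.55 (SE 0.54) for the dimmer, and Tspan8 by 0.94 (SE 0.51).

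Thy1 varied more among control arrays than between the genotypes. Thy1 was at 10.51, 11.89 and 12.41 on control arrays and at 12.10, 12.72 and 11.40 on SRF-null arrays. Control replicate 1 was the lowest array, where Kit, Flt3 and Procr had their highest value, and SRF-null replicate 2 was the highest. The difference was 0.47 (SE 0.57, 95% interval -0.93 to 1.87, limma adjusted p = 1), the pairs differed by 1.58, 0.83 and -1.01, and the value turned to -0.08 without control replicate 1. Thy1 is also a T cell gene, and 11 of the 12 measured genes of T and NK cells were higher in SRF-null cells (median 0.68, 0 past the test). The list's mean signal was 6.92 to 7.40 on control and 7.46 to 8.49 on SRF-null arrays. Control replicate 3 at 7.40 and SRF-null replicate 1 at 7.46 nearly met, so single genes such as Cd7 can set that gap. Cd3g and Cd3d were under 6 on every array, and Cd7 differed by 1.74 (SE 0.28), Cd247 by 0.68 (SE 0.18) and Klrd1 by 1.42 (SE 0.39). On SRF-null replicate 3, where that mean was highest, Thy1 was at its second-lowest value, and the part of T cells in the Thy1 signal was not tested.

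**Figure D2:**
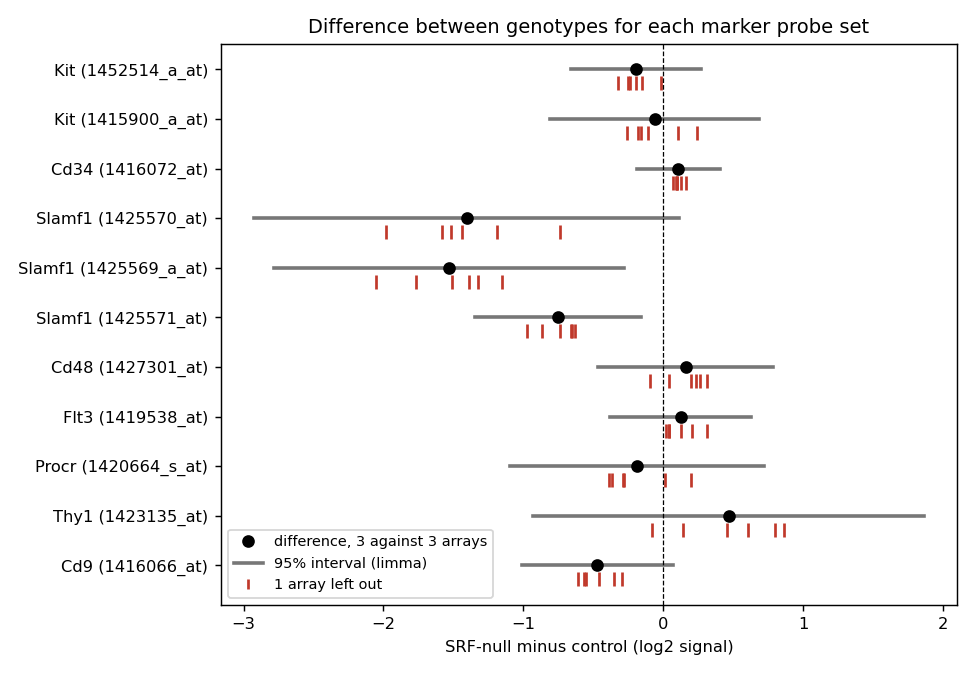
Difference between the genotypes (SRF-null minus control, log2 signal) for the 11 marker probe sets, with the limma 95% interval as a bar and the differences with 1 array left out as ticks. Intervals of 2 Slamf1 probe sets, from -2.78 to -0.28 and from -1.35 to -0.16, do not reach 0, and ticks lie on both sides of 0 for the dimmer Kit probe set, Cd48, Procr and Thy1.

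Over the 8 genes, each by its brightest probe set, 4 were lower and 4 higher in SRF-null cells with a median of -0.04, beside a median of -0.01 over all 18193 genes. None of the 8 had an unadjusted limma p under 0.05 or groups that did not overlap, where 4.95% of all genes had such a p (2.58% higher, 2.37% lower) and 10.6% had such groups. Over all 11 probe sets 7 were lower and 4 higher with a median of -0.18, where 50% of all probe sets were lower and 50% higher, and 3 of those 7 belong to Slamf1. In the fit over all probe sets 0 of 11 marker probe sets and 0 of 45037 in all (0%) passed an adjusted p of 0.05, while 1975 had an unadjusted p under 0.05, 1066 of them higher and 909 lower. Pairs had 1 sign in 3 of 3 for the brighter Kit probe set, whose values were -0.47, -0.08 and -0.04, and for the dimmer probe sets of Slamf1. For the other 6 markers, and for Slamf1 on its brightest probe set, the pairs had both signs.

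**Figure D3:**
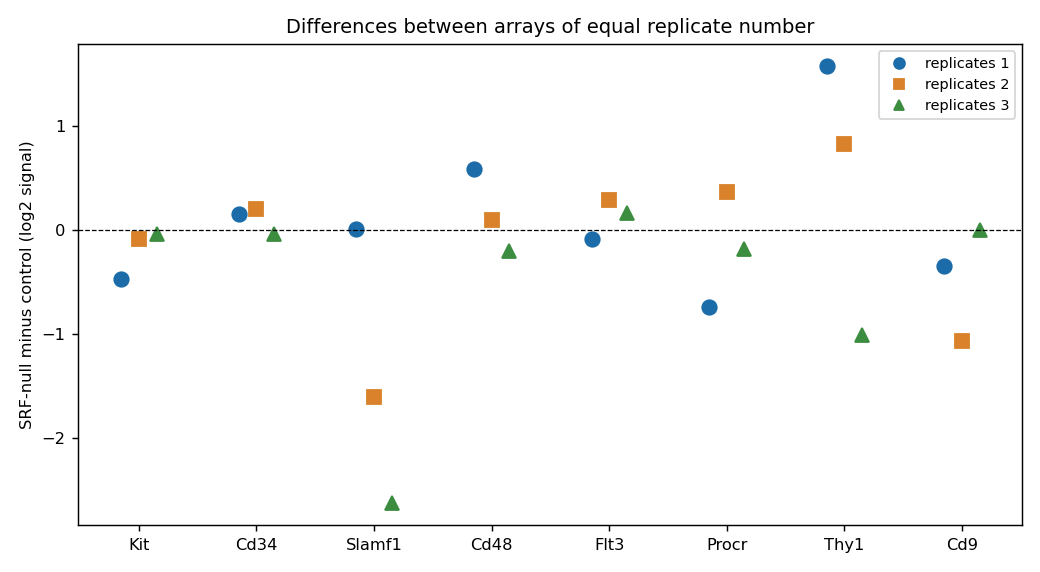
Difference between the SRF-null and the control array of equal replicate number (log2 signal) for the brightest probe set of each of the 8 marker genes, 1 symbol per pair. Slamf1 differs by 0.01, -1.60 and -2.62, and Thy1 by 1.58, 0.83 and -1.01.

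Genes whose pattern over the 6 arrays was most like a marker's were sought among genes at 8 or above in both genotypes. The measure was Pearson's r over 6 arrays, which share their group means and normalization, and with so few arrays and 5985 genes compared (5986 for Cd34) high values are found for any pattern. Slamf1 was most like Ncoa6 (r = 0.986) and Lrch3 (0.964), which differed between the genotypes by only -0.33 (SE 0.18) and -0.30 (SE 0.16). Kit was most like Ctse (0.989) and Fam169a (0.984), Flt3 like Malt1 (0.996) and Baz2a (0.993), and Procr like Ppp1r9a (0.992) and Mettl7a1 (0.990). Cd34 was most like 1110032A03Rik (0.994) and Rnf180 (0.986), Cd48 like 1500002F19Rik (0.951) and Pcp4l1 (0.899), and Thy1 like Layn (0.996) and B330016D10Rik (0.985). For Cd9 they were Il15ra (0.983) and Pik3cd (0.968), the kinase gene of the signalling list.

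Other stem cell surface genes were lower more often than higher. Of 19 measured genes 13 were lower and 6 higher in SRF-null cells, with a median of -0.29, where 51.4% of all genes were lower, and 0 passed the adjusted test. The list's mean signal was 12.27 to 12.47 on control and 11.75 to 12.23 on SRF-null arrays. It was lowest on SRF-null replicate 3, the array lowest for Slamf1, Procr and Kit by their brightest probe sets. Control replicate 3 at 12.27 and SRF-null replicate 1 at 12.23 nearly met. That narrow gap depends on Jam3, at 6.44 on SRF-null replicate 1, whose direction is not settled (below). It is thus no sign of a drop in the whole list on each SRF-null array. Tek, the angiopoietin receptor gene of quiescent stem cells, was at 13.39, 13.84 and 13.63 on control and at 12.92, 12.91 and 12.51 on SRF-null arrays, a difference of -0.84 (SE 0.19, limma adjusted p = 0.937). Eng, the gene of the TGF-beta co-receptor endoglin, differed by -0.66 (SE 0.17). Groups did not overlap for Tek and Eng, and in the whole list for 3 of the 19 genes lower and 1 higher. Over all genes such groups made up 5.45% lower and 5.16% higher. Jam3, an adhesion receptor gene, differed by -1.15 (SE 0.22) for its brighter probe set and 0.79 (SE 0.31) for the dimmer, so its direction is not settled. The dimmer Jam3 probe set was near the bottom of the scale, with means of 5.12 in control and 5.91 in SRF-null cells. Among the genes used beside Slamf1 and Procr to sort stem cells, Esam differed by -0.35 (SE 0.28) and Itga6 by -0.02 (SE 0.28). Alcam differed by 0.15 (SE 0.21) and Itga2b by 0.21 (SE 0.28), and the groups overlapped for each of these. Other integrin genes of the list differed more. Itgb3 was at -0.71 (SE 0.27) on its brighter probe set, with overlapping groups. Itga2, dim with means of 6.22 and 6.64, was at 0.42 (SE 0.24) with groups that did not overlap. These genes, and Cd27 in the next list, were chosen after their values were seen.

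Surface genes that mark later progenitor subsets leaned the other way. Of 13 measured genes 10 were higher and 3 lower, with a median of 0.50 and 0 past the adjusted test. The list's mean signal was 12.28 to 13.01 on control and 13.13 to 13.65 on SRF-null arrays, highest on SRF-null replicate 3. The gap between control replicate 3 at 13.01 and SRF-null replicate 1 at 13.13 depends on Ccr9. That gene was at 8.85, 4.86 and 7.33 on control and at 10.34, 11.20 and 9.63 on SRF-null arrays. The gap is thus no sign of a shift of the whole list. Il7r, the interleukin 7 receptor gene of lymphoid progenitors, was at 10.09, 10.24 and 11.16 on control and at 11.79, 12.47 and 13.55 on SRF-null arrays, a difference of 2.11 (SE 0.51, limma adjusted p = 0.982), and by 2.11 (SE 0.53) on its other probe set. Cd33, a myeloid sialic acid-binding receptor gene, differed by 1.36 (SE 0.38). Ccr9, a chemokine receptor gene of thymus-seeding progenitors, differed by 3.38 (SE 1.03) with a control array at 4.86, near the bottom of the scale. The groups did not overlap for these 3 and for 4 of the 13 genes in all, each higher, where 5.16% of all genes had such groups in that direction, while the pan-progenitor gene Cd27 differed by -0.01 (SE 0.14). Flt3, which marks the same lymphoid-biased progenitors, did not share the size of these differences, and the contrast with Il7r was not tested.

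**Figure D4:**
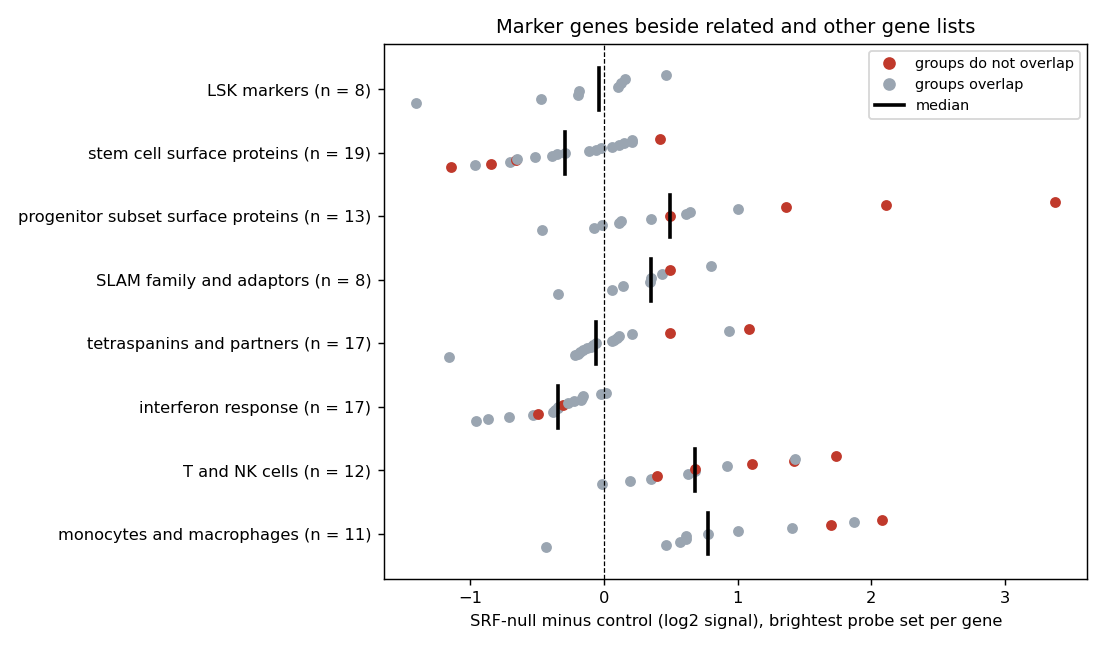
Difference between the genotypes (SRF-null minus control, log2 signal, brightest probe set) for the 8 marker genes and for genes of 7 lists, each point a gene, red where the 3 SRF-null and 3 control arrays do not overlap, with a bar at the median. The marker genes centre on -0.04 with Slamf1 at -1.40 apart from the rest, stem cell surface genes on -0.29 and progenitor subset genes on 0.50.

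The Ly6 family and interferon response genes were read because Ly6a, an interferon-inducible member of that family, was not analysed. Neither list measures Ly6a, and whether either follows it was not tested. Of 9 measured Ly6 and uPAR family genes 4 were higher and 5 lower (median -0.10, 0 past the test), and the 3 with the smallest unadjusted p, Gpihbp1, Ly6f and Ly6h, were under 6 on every array. Of 17 measured interferon response genes 16 were lower in SRF-null cells, where 51.4% of all genes were, with a median of -0.34 and 0 past the adjusted test. The differences were -0.87 (SE 0.34) for Oas2, -0.49 (SE 0.15) for Gbp2 and -0.30 (SE 0.13) for Tap1. The list's mean was 13.27 to 14.09 on control and 12.79 to 13.64 on SRF-null arrays, so the genotypes overlapped, and control replicate 2 was the highest array.

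Markers of mature cells, some of which also carry CD48, Thy1 or CD9, were read on the same arrays, and their part in the marker values was not tested. Of 11 monocyte and macrophage genes 10 were higher (median 0.78), with list means of 8.99 to 9.55 on control and 9.45 to 10.99 on SRF-null arrays and with Mrc1 different by 2.08 (SE 0.55), C1qa by 1.70 (SE 0.56) and Cd163 by 0.78 (SE 0.31). B cell genes had 7 of 8 higher (median 0.14, means of 8.15 to 9.71 and 7.62 to 10.49), with Ebf1 at 1.79 (SE 0.95) and Pax5 under 6 on every array. Igll1 was at -3.06 (SE 2.02) on its brightest probe set and at 1.65 (SE 1.51) on its other one, so its direction is not settled. Dendritic cell genes had 6 of 8 higher (median 0.34, 8.99 to 9.52 and 8.87 to 10.45) and granulocyte genes 5 of 9 (median 0.08, 10.54 to 11.32 and 10.52 to 11.49). Megakaryocyte genes, which bear on Cd9, had 6 of 9 higher (median 0.21, 10.01 to 11.05 and 10.16 to 11.11), with Itgb3 at -0.71 (SE 0.27) and Gp9 at 0.42 (SE 0.19). Erythroid genes had 6 of 7 higher (median 0.04, 8.78 to 9.11 and 8.41 to 9.66, Alas2 and Hba-a1 under 6 throughout) and mast cell and basophil genes 4 of 8 (median 0.23, 8.94 to 10.24 and 9.06 to 10.09). Endothelial and stromal genes, among which EPCR and CD34 are also found, had 7 of 11 higher (median 0.10, 7.28 to 7.56 and 7.27 to 7.75), with Tie1 at -0.92 (SE 0.24) and Col3a1, Lepr, Lum and Dcn under 6 on every array. In these 8 lists and the T and NK cell list 0 genes passed the adjusted limma test. SRF-null replicate 3, the array with the lowest signal on the brightest Slamf1 probe set, had the highest list mean for T and NK cell, monocyte and macrophage, B cell, dendritic cell, erythroid and megakaryocyte genes. Among controls, replicate 3 had the highest mean for the same lists. Its signal on that Slamf1 probe set, 11.80, lay between those of the other controls. A link between these lists and Slamf1 was not tested.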

How the data were processed

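RNA from sorted LSK pools (30 ng total RNA, NuGEN amplification and biotin labelling, per the labels' protocols) was hybridised to 6 Affymetrix arrays, 3 per genotype, grouped by sample title. The series' design text names another array type than the annotation paired with the deposited values, and probe sets were named from that annotation. The deposited table holds an intensity per probe set; the sources used here give no summary algorithm, background correction or scaling, and the linear scale was read from the values. The 64 Affymetrix control probe sets were left out. Of the rest 34945 named 1 gene, 932 several and 9160 none in the annotation used, and 34741 were found by gene ID in RefSeq (0 with a newer symbol).

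Array medians of log2(intensity + 16) differed by 0.51, so arrays were quantile normalized; fold changes on this scale understate those of dim genes. SRF-null and control arrays were compared with limma 3.58.1 in R 4.3.3 (lmFit, eBayes, genotype as the only term, two-sided), with Benjamini-Hochberg adjustment over 45037 probe sets and a threshold of 0.05, after a test on simulated data. Lists use the brightest probe set per gene and got no set test. The number of arrays limits the precision. In the simulated data 4 of 100 changes of 1 log2 unit and 57 of 100 changes of 3 passed the threshold, with 2 false calls in all. Most changes of 1 log2 unit would thus be missed, and a count of 0 past the threshold does not show that a gene is unchanged. Figures were drawn with matplotlib 3.10.9.

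Genes named are the markers, up to 3 genes per list with the smallest p, the 2 genes most like each marker (SD over arrays of at least 0.2), SLAM neighbours, defining markers of other cells, and the target and sex check. The markers, lists and alternatives were chosen with earlier results of these data known. Replicate numbers come from the titles; deviations from group means correlated at 0.473, 0.210 and 0.427 within the equal numbers, so these were taken as pairs. Alternatives covered normalization, offset, a filter, gene-level rows, the variance model, the replicate block and left-out arrays.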

Additional observations from a re-analysis of the deposited data

How the results depend on the processing

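The marker differences kept their sign in 160 of 168 values over 16 alternatives, and 0 of these passed an adjusted p of 0.05. Not all of these values were free to change sign. The filter, the rows of brightest probe sets, the variance model and the replicate block return the main difference unchanged. Gene-level means do so for genes with 1 probe set. Signs turned when an array was left out for the dimmer Kit probe set (range -0.26 to 0.24), Cd48 (-0.092 to 0.31), Procr (-0.39 to 0.20) and Thy1 (-0.079 to 0.86), and, with control replicate 2 and SRF-null replicate 1 both dropped, for Cd48 (-0.21) and Flt3 (-0.040). The count past the threshold over all probe sets, 0, was 1 after median centring (Mocs1) and ranged from 0 to 1 with an array left out (Ccnb1ip1, without control replicate 2), and it was 0 in the other alternatives. The causes were not tested. With the replicate number as a block (paired fit) the count was 0 and no call changed, while 3189 probe sets had an unadjusted p under 0.05; without control replicate 1 there were 3428. The filter on dim probe sets left out Slamf1's dimmer probe sets, which have no value there, and gene-level rows give only 1 value per gene. The second Slamf1 probe set, a dim one, differed by -1.66 with an offset of 1 and by -1.24 with an offset of 64.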
